A study of Caenorhabditis elegans with 161 samples.

Results

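The last stage of an embryonic time course of the nematode Caenorhabditis elegans, 830 min after the 4-cell stage, was set against the 6 stages before it. Its 20 libraries, 1 from each of 20 strains, were compared with the 120 libraries of the same strains at 0, 60, 180, 270, 440 and 650 min, out of 161 libraries in all. The strains were 502, 508, 516, 517, 522, 529, 530, 536, 550, 552, 555, 564, 566, 570, 573, 575, 593, 597, 598 and N2. The design text calls all of them mutation-accumulation strains, a term for lines kept at very small population size, in which selection removes few new mutations. N2 carries the name of the laboratory reference strain, which leaves 19 numbered lines. Each library was made from a pool of 10 whole embryos that had been cut out of their mothers, picked at the 4-cell stage and incubated at 20 °C with no agent added. Strain 522 was also profiled again in 21 libraries, 3 at each of 7 time points lettered A to G in their titles. The time field of most of these repeats contradicts the title, so only the letters were used. The labels call every sample a whole embryo and do not say whether the animals had hatched at 830 min. No label ties pools to separate cultures, and p-values therefore measure how far these samples spread, part of which may be technical.

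By the end of embryogenesis the epidermis of the nematode has secreted a cuticle built mainly of collagens, which is shed and replaced at each later moult. The pharynx, a muscular pump, lines itself with a cuticle of its own, and the gut makes the proteases and lysozymes with which the larva digests bacteria. The animal leaves a chitin-containing eggshell and lives on its reserves until it feeds. The comparison asks which transcripts mark the animal around hatching, which ones it shares with the stage before, and which ones are gone.

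Transcripts were counted by CEL-Seq, which tags the 3' ends of polyadenylated RNA. The 830 min libraries held 5653 to 525902 counts with a median of 50644.5, and 2970 of 20687 genes were deep enough to test. The shallowest was that of strain 502, where 1 count was worth 116.6 CPM, counts scaled to a common library size, and 9.12% of genes had any count, so a 0 in this library says little. Across genes, all 20 of the 830 min libraries correlated best with the mean of their own stage, with r of 0.645 to 0.944, and strain 502 had the smallest margin over the next stage, 0.032. Strains 550, 570, 502, 555, N2 and 575, the first 6 of the table, were also fitted apart, because they separated from the other 14 on the first principal component of the libraries. That component, over 2080 well-counted genes and 11.4% of the variance, had strain means of 0.052 to 0.151 in these 6 and -0.083 to -0.024 in the other 14. They did not separate on that of the strain means over all 2970 tested genes, and no label names a batch. Levels below are CPM adjusted by the trimmed mean of M-values (TMM) and set against all gene counts of a library. Changes are log2 fold changes of 830 min over the stage named, with their SE, from edgeR's quasi-likelihood test with strain as a block. A gene was called where its change reached 2-fold with a Benjamini-Hochberg adjusted p below 0.05, and only called genes are said to have risen or fallen. In pools of whole animals, fewer cells of a type and less RNA per cell cannot be told apart.

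The 830 min animal differed from the mean of the 6 earlier stages in more than 1 in 2 measured genes. Against that mean 755 of 2970 genes were higher, 25.4% of those tested, and 895 were lower, 30.1%. The fall in the typical gene depended on scaling: the median log2 fold change over all genes was -0.24 with TMM, -0.81 with the size factors known as RLE and -0.83 in DESeq2. With RLE 597 genes were higher and 1353 lower, and in DESeq2 597 were higher and 1365 lower, so higher calls made up 45.8% of calls with TMM, 30.6% with RLE and 30.4% in DESeq2. Fewer genes were called against the stage just before. Against 650 min alone 188 genes were higher, 6.33%, and 332 were lower, 11.2%. Higher calls made up 36.2% of the calls there with TMM, 24.7% with RLE, where 144 genes were higher and 440 lower, and 26.9% in DESeq2. List counts below are to be set beside the TMM shares of all genes. These were 6.33% higher and 11.2% lower against 650 min, and 25.4% and 30.1% against the mean of the earlier stages.

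Taking the 6 earlier stages one at a time, 94 genes were higher at 830 min than at every one of them, 3.16% of genes tested, and 34 genes, 1.14%, were lower than at every one. The balance depended on scaling, with 72 genes above and 95 below every stage with RLE, and 73 above and 81 below in DESeq2. Another 204 genes, 6.87%, were above 0 to 440 min and not called against 650 min. A further 35, 1.18%, were above 0 to 440 min and below 650 min. Against 0, 60, 180, 270 and 440 min taken singly, 36.8%, 36.7%, 30.7%, 26.4% and 16.9% of genes tested were higher, in that order. Lower genes made up 33.0%, 35.1%, 34.8% and 33.1% against the first 4 of these stages. These 6 comparisons share the 830 min libraries and are not independent of each other. The 94 genes took 6.79 ± 0.68% of counts at 830 min and 1.57 ± 0.41% at 650 min (SD, n = 20 strains), and the 204 shared genes took 20.4 ± 3.1% and 16.2 ± 3.7%. The 35 genes past their peak took 0.482 ± 0.222% at 830 min and 3.87 ± 0.75% at 650 min. Of the 94 genes, 28 had risen at least 8-fold over 650 min and 50 by 2- to 4-fold, and 76 met the conditions for naming, which include a rise in at least 19 strains. The levels of 21 of the 94 did not overlap between 830 and 650 min libraries, against 82 of all 2970 genes, 2.76%. The 94 were chosen by their rise over these same 650 min libraries, and the 82 include genes that fell. Setting the 2 counts side by side is therefore a description and not a test.

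**Figure D1:**
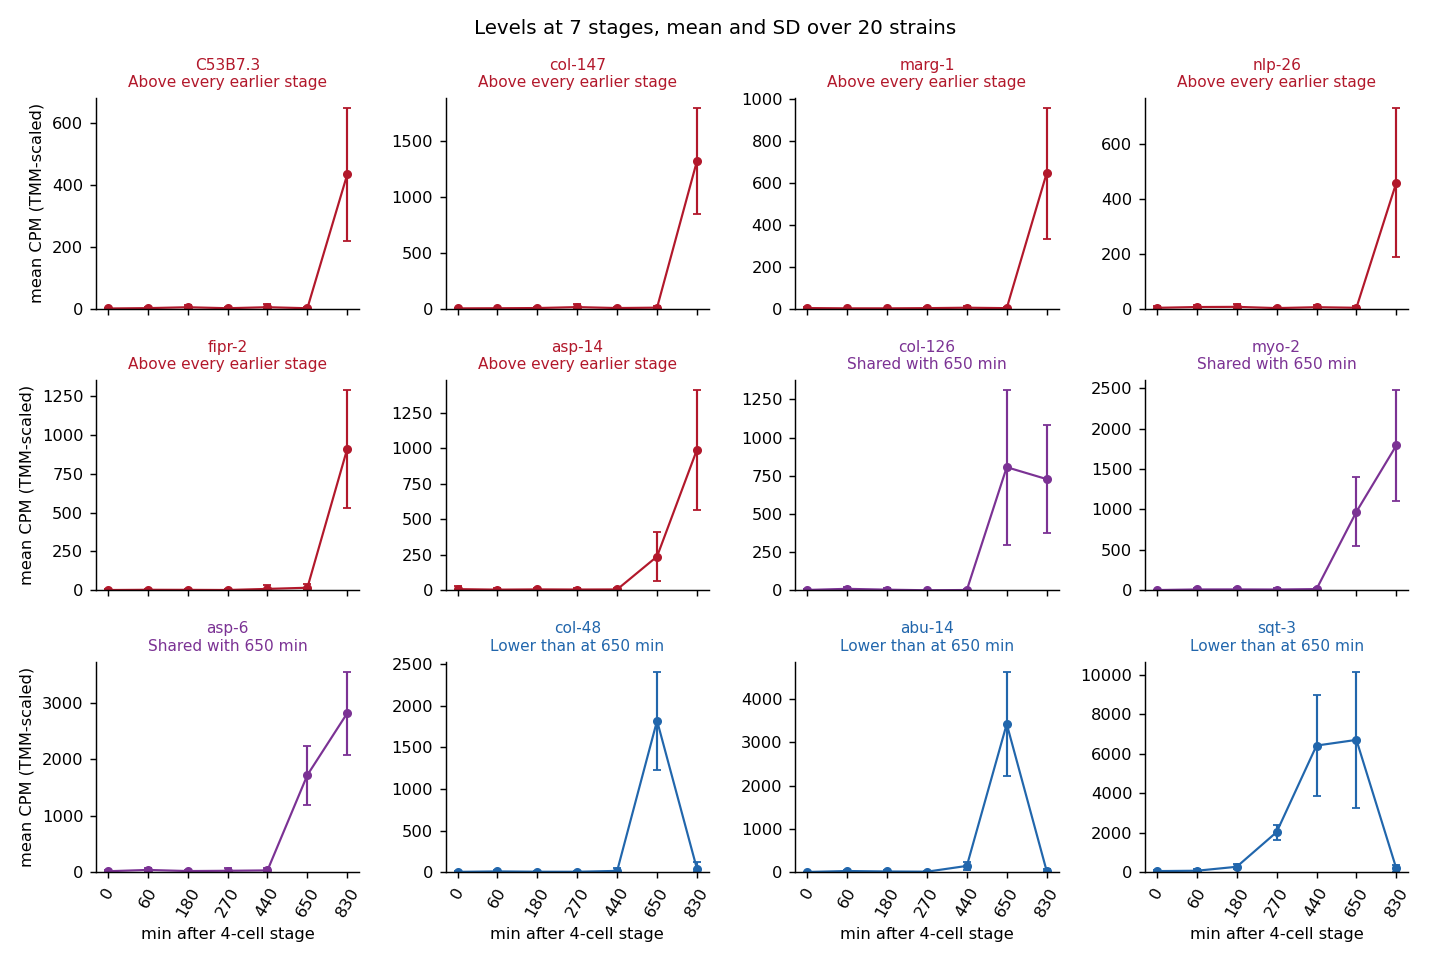
Mean levels (TMM-scaled CPM, linear axes from 0) of 12 genes at 7 stages (minutes after the 4-cell stage), with bars of 1 SD over 20 strains. The 6 genes in red stand up at 830 min, such as C53B7.3 with a median of 443.3 CPM; the 3 in purple are high at both last stages; the 3 in blue peak at 440 or 650 min and are low at 830 min.

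Some transcripts were all but missing from the embryo until the last stage. C53B7.3, a gene without a symbol, had 33.5, 443.3 and 778.4 CPM as lowest, median and highest at 830 min, against 0, 0 and 17.8 CPM at 650 min. The groups did not overlap, and strain 516 was the lowest at 830 min. Over all strains it had 698 counts at 830 min and 1 at 650 min, a ratio of 751 with a 95% interval of 134.4 to 29710 that covers counting error only. Its fitted change over 650 min was 7.65 ± 0.34 (edgeR, Benjamini-Hochberg adjusted p = 1.57e-48), positive in 20 of 20 strains. marg-1 had 163.9, 556.7 and 1139 CPM at 830 min, against 0, 0 and 17.8 CPM at 650 min (7.13 ± 0.28, edgeR adjusted p = 1.67e-55). Every 830 min library exceeded every earlier one, and strains 550, N2 and 502 were the lowest. Y73F4A.2 had 67.0, 333.2 and 605.3 CPM, against 0, 0 and 36.9 CPM at 650 min (5.99 ± 0.28, edgeR adjusted p = 8.33e-46), with no overlap. F46F2.3 (5.12 ± 0.33), epic-2 (5.12 ± 0.38) and dbd-17 (4.59 ± 0.23) also rose in 20 of 20 strains over 650 min. The degenerin-like ion channel gene del-6 had 0, 530.6 and 1125 CPM, against 0, 0 and 76.5 CPM at 650 min (4.95 ± 0.27). Its 0 is the shallow library of strain 502, and every other 830 min library exceeded every earlier library.

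Some cuticle collagens rose and others fell between 650 and 830 min. Of the numbered col genes, 49 of 158 could be tested, and 38 of them were above the mean of the earlier stages. Against 650 min 9 were higher and 19 lower, with a list median of -0.18 beside -0.08 for all genes. The sum over the whole list was 7.54 ± 2.35% of counts at 830 min and 7.94 ± 2.28% at 650 min (SD, n = 20). Collagen genes of this size are alike in sequence and may share reads, above all neighbours such as col-12 and col-13 or col-159 and col-160 on chromosome V.

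The 9 collagens that rose were col-147, col-42, col-160, col-39, col-103, col-159, col-13, col-12 and col-98, and each was above every earlier stage. col-147 had 466.5, 1336 and 2203 CPM as lowest, median and highest at 830 min, against 0, 0 and 40.7 CPM at 650 min, where 7 of 20 libraries had any count (7.24 ± 0.28, edgeR adjusted p = 1.17e-55). The ranges lay far apart, with strains 502 and 597 lowest and 570 highest at 830 min. col-160 had 2711, 5807 and 9813 CPM, against 0, 162.1 and 788.8 CPM at 650 min (4.75 ± 0.36, edgeR adjusted p = 4.59e-23). N2 and 552 were the lowest at 830 min, still above the highest earlier library. col-42 had 349.9, 1076 and 1914 CPM, against 0, 19.4 and 128.4 CPM (5.40 ± 0.29), and col-39 had 572.8, 1275 and 2124 CPM, against 0, 44.1 and 221.6 CPM (4.51 ± 0.24). Both rose in 20 of 20 strains with no overlap. col-103 (4.24 ± 0.32) and col-159 (4.12 ± 0.28) rose in 20 strains, while col-13 (2.35 ± 0.23) rose in 19 and col-12 (2.27 ± 0.22) and col-98 (1.13 ± 0.21) in 18.

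The 19 collagens that fell included 9 of the genes past their 650 min peak. col-48 had 0, 5.58 and 315.0 CPM at 830 min, against 803.4, 1762 and 3144 CPM at 650 min (-5.67 ± 0.27, edgeR adjusted p = 6.61e-44). No library overlapped, and the highest at 830 min were N2 and 502. col-109 had 0, 90.7 and 337.6 CPM, against 1326, 2403 and 4723 CPM (-4.60 ± 0.22). col-74 (-6.17 ± 0.30), col-14 (-5.67 ± 0.29), col-165 (-5.60 ± 0.34), col-97 (-5.44 ± 0.29) and col-104 (-5.21 ± 0.31) fell in 20 of 20 strains. Between these arms stood 21 tested col genes that were not called. They include col-126, whose 165.9, 789.9 and 1333 CPM at 830 min stood against 38.5, 919.4 and 1567 CPM at 650 min and a mean of 2.38 CPM at 440 min. Its change was -0.02 ± 0.21 against 650 min (edgeR adjusted p = 0.966) and 7.80 against 440 min, and its near neighbour col-127 had similar values (-0.13 ± 0.18 and 7.68). col-170, col-166 and col-145 also belong here, at 6.97, 6.63 and 6.604 over 440 min.

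**Figure D2:**
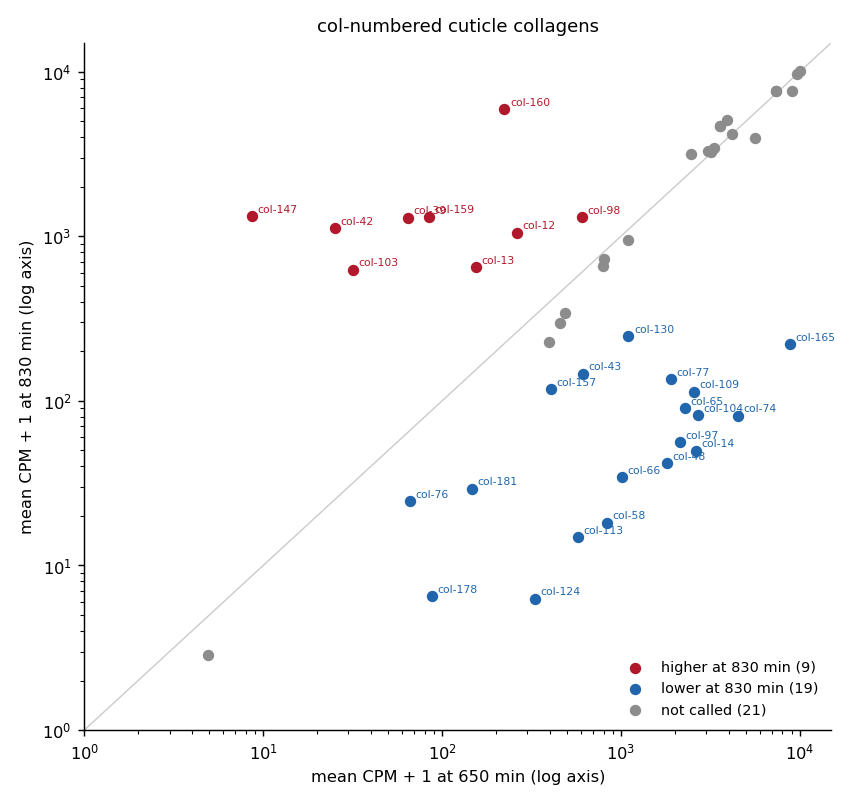
The 49 tested col genes, as mean CPM over 20 strains at 830 min and at 650 min on log axes. The 9 genes that rose lie above the diagonal with col-147 farthest from it, 19 lie below it, and 21 that were not called lie around it.

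Other cuticle genes fell from 650 min or were low at both stages. sqt-3, a collagen that shapes the body, had 0, 118.1 and 583.1 CPM at 830 min, against 2643, 5705 and 14940.0 CPM at 650 min (-5.12 ± 0.26, edgeR adjusted p = 3.68e-37). All 20 strains were lower and the ranges were apart. All 3 tested members of the dpy, sqt, rol and bli list fell against 650 min, dpy-14 by 2.58 and dpy-17 by 2.25 on the log2 scale. The 4 tested furrow collagens, dpy-2, dpy-3, dpy-7 and dpy-10, which build the ring-shaped grooves of the cuticle, were not called against 650 min by edgeR, DESeq2 or RLE scaling, with 1 of 4 at an unadjusted p under 0.05. Each had a median of 0 CPM at 830 min. They were at means of 996.7 to 2157 CPM at 440 min. The cuticlin cut-2, a cross-linked cuticle protein, had 0, 98.0 and 1050.0 CPM at 830 min, against 4126, 9402 and 19750.0 CPM at 650 min (-5.71 ± 0.33, edgeR adjusted p = 4.15e-32), and its highest 830 min library was that of strain 502. Precuticle and sheath genes had 2 of 10 tested members lower than at 650 min and none higher, and 7 of 10 lower than the mean of the earlier stages.

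Hedgehog-related genes (grd, grl) encode secreted proteins, many of them made by the nematode epidermis, and ptr and ptc genes encode patched-related membrane proteins. Of 14 tested members of the hedgehog- and patched-related list 2 were higher and 6 lower than at 650 min, with a median of -1.04. The median changed sign between strain sets, at 0.47 within the first 6 strains of the table and -1.91 within the other 14. grl-16 had 0, 2.81 and 395.3 CPM at 830 min, against 1411, 2706 and 4546 CPM at 650 min (-5.89 ± 0.29, edgeR adjusted p = 4.58e-38), with no overlap. grd-5 (-3.07 ± 0.22), ptr-2 (-3.64 ± 0.36), ptr-23 (-2.74 ± 0.22), grl-4 (-2.002 ± 0.33) and ptc-3 (-1.89 ± 0.20) fell too. The neighbours grd-10 and grd-13 on chromosome IV rose instead, grd-10 by 2.16 ± 0.21 in 20 strains and grd-13 by 1.70 ± 0.20 in 19.

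**Figure D3:**
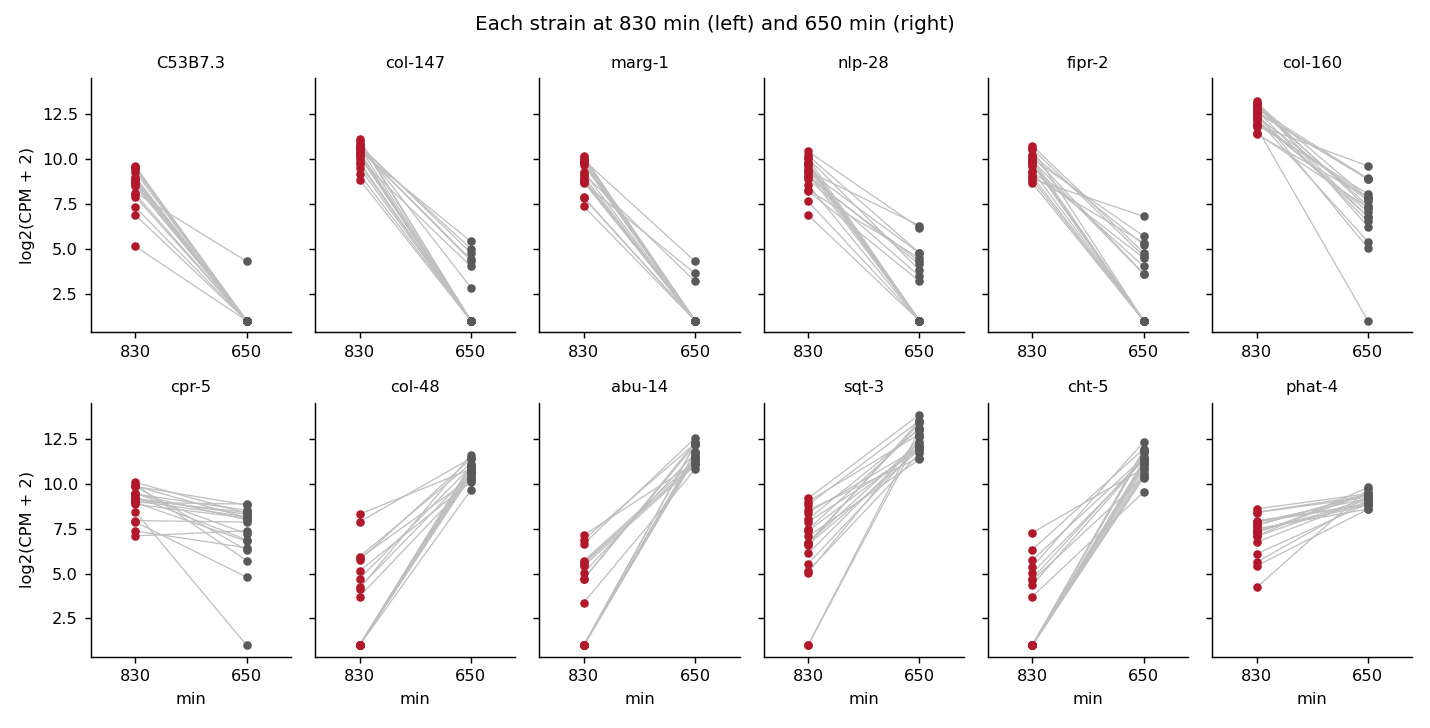
Levels of 12 genes in each of 20 strains, as log2(CPM + 2), with 830 min on the left and 650 min on the right of each panel and a line joining the libraries of 1 strain. Lines of C53B7.3, col-147, marg-1, nlp-28 and fipr-2 slope the same way in every strain, those of col-48, abu-14, sqt-3 and cht-5 the opposite way, and the changes of cpr-5 and phat-4 are smaller.

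Antimicrobial peptide genes rose sharply at 830 min. The fipr genes, named for their relation to fungus-induced proteins, had 5 tested members of 59 in the list, and all 5 rose over 650 min with a median of 4.16. fipr-2 had 405.1, 883.5 and 1737 CPM at 830 min, against 0, 5.05 and 110.8 CPM at 650 min (6.06 ± 0.26, edgeR adjusted p = 9.10e-50). fipr-21 had 580.6, 1616 and 3198 CPM, against 0, 68.9 and 443.2 CPM (4.16 ± 0.22, edgeR adjusted p = 3.22e-40). Neither gene's ranges overlapped, and N2 was the lowest strain for fipr-21. fipr-4 (4.28 ± 0.26), fipr-8 (4.15 ± 0.26) and fipr-6 (4.11 ± 0.28) lie next to each other on chromosome V, are close copies and may share reads. The members of the list were chosen with these data known, and those that passed the depth filter could do so through 830 min alone, so the count is a description.

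Several peptide genes of the nlp family rose too, some of which act as epidermal antimicrobials and others as neuropeptides. Of 17 tested members of the neuropeptide and insulin-like list, 5 rose and none fell against 650 min, and 15 were above the mean of the earlier stages. nlp-28 had 116.6, 644.9 and 1387 CPM at 830 min, against 0, 3.58 and 77.1 CPM at 650 min (5.39 ± 0.25, edgeR adjusted p = 4.87e-46). Its neighbour nlp-29, the best known antimicrobial of the group, had 298.6, 1502 and 3514 CPM, against 18.4, 101.8 and 561.1 CPM (3.43 ± 0.19, edgeR adjusted p = 1.79e-39). Both rose in 20 of 20 strains, although the ranges of nlp-29 overlapped: strain 517 at 830 min lay below strains 570 and 575 at 650 min. nlp-26 had 0, 414.8 and 969.2 CPM, against 0, 0 and 28.6 CPM (6.36 ± 0.32), with its 0 in strain 502, and N2 next at 80.3 CPM. nlp-24 rose by 2.74 ± 0.23 in 20 strains and nlp-40, a gut-derived neuropeptide, by 1.09 ± 0.18 in 19.

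Enzymes that process neuropeptides rose, and no other gene of the synaptic and transmitter list was called. Of its 13 tested genes 4 rose over 650 min and none fell, while the list median was -0.44, the opposite sign. The 4 were egl-3, a proprotein convertase (1.21 ± 0.15), egl-21, a carboxypeptidase (1.095 ± 0.16), and the amidation enzymes pgal-1 (1.16 ± 0.17) and pghm-1 (1.06 ± 0.18). egl-3 had 116.6, 815.2 and 1162 CPM at 830 min, against 77.1, 358.9 and 789.8 CPM at 650 min, higher in 19 of 20 strains with overlapping ranges (edgeR adjusted p = 2.42e-12). snb-1, the synaptobrevin of synaptic vesicles, had 67.5, 380.4 and 578.5 CPM, against 462.4, 688.1 and 1365 CPM (-0.86 ± 0.14, edgeR adjusted p = 2.31e-08), under the 2-fold limit. With RLE 2 of the list were higher and 3 lower, and in DESeq2 2 were higher and 1 lower.

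**Figure D4:**
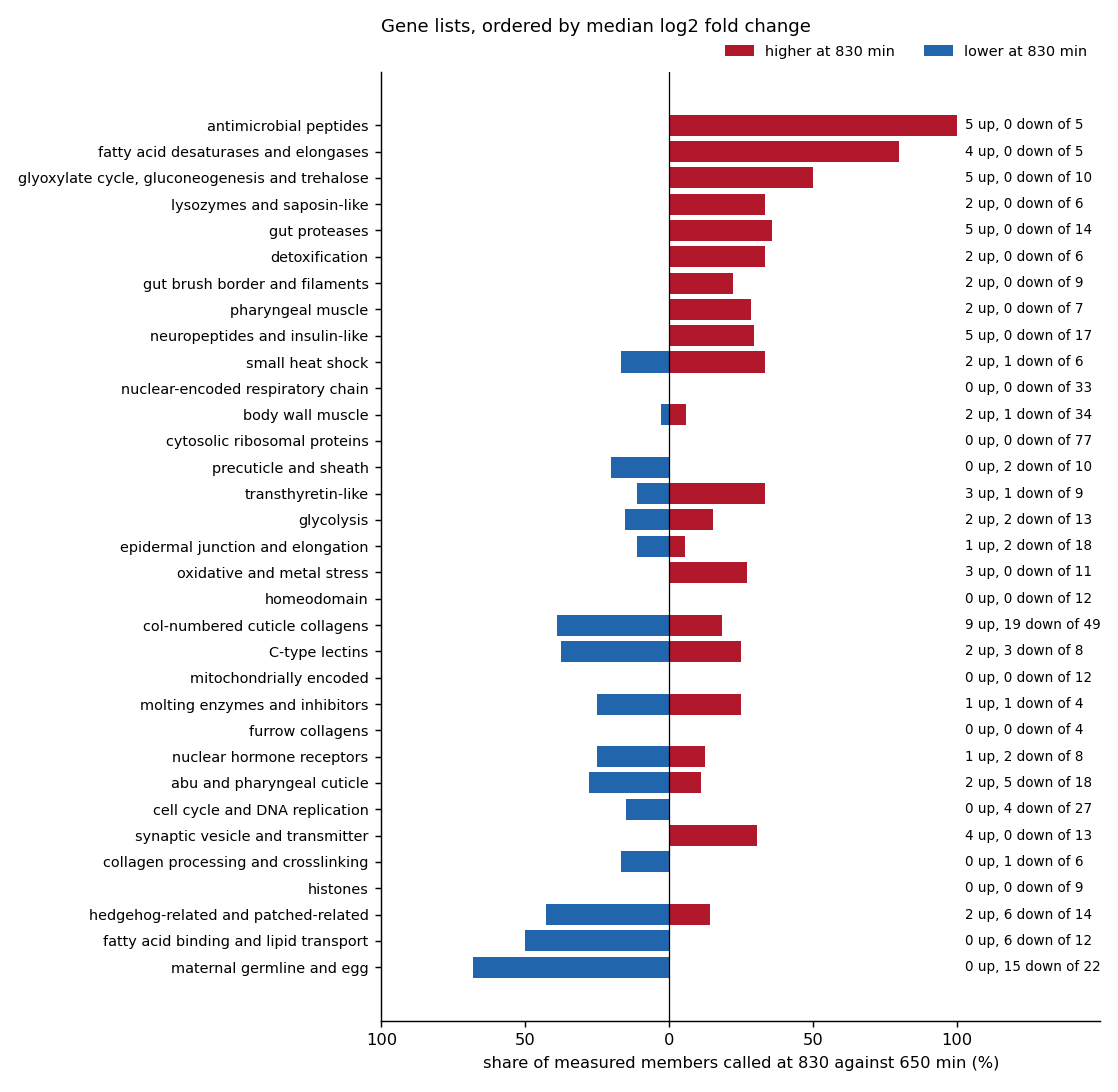
For each gene list with at least 4 tested members, the share of those members called higher (red, right) and lower (blue, left) at 830 min than at 650 min, ordered by the median log2 fold change of the list. All 5 antimicrobial genes rose, and 15 of 22 maternal and egg genes fell, a count that drops to 2 without 4 of the 650 min libraries.

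Many gut genes were above their earlier mean at 830 min, and some rose further from 650 min. Of 14 tested gut proteases 5 rose over 650 min and none fell (median 0.74), and 10 were above the mean of the earlier stages. Of all genes tested 6.33% rose and 11.2% fell against 650 min, and 25.4% were above that mean. asp-14, an aspartyl protease, had 0, 877.3 and 1993 CPM at 830 min, against 0, 222.5 and 676.5 CPM at 650 min (2.23 ± 0.20, edgeR adjusted p = 4.62e-21). Its 0 at 830 min was again strain 502, and 18 of the 830 min libraries exceeded every earlier one. The cathepsin B-like cpr-9 had 583.1, 2263 and 3963 CPM, against 192.7, 761.3 and 1146 CPM (1.63 ± 0.18), and cpr-5 rose by 1.42 ± 0.21, in 20 and 19 strains. With RLE, and in DESeq2, 4 of the proteases rose and 1 fell. The intestinal filament genes ifc-2 (1.28 ± 0.17) and ifc-1 (1.21 ± 0.17) were the 2 of 9 brush border and filament genes that rose. Of 6 tested lysozyme and saposin-like genes 2 rose, spp-14 by 1.99 ± 0.21 and the lysozyme lys-1 by 1.23 ± 0.19, each in 18 strains. Of 8 tested C-type lectins 3 were above and 5 below the mean of the earlier stages, and 2 rose and 3 fell against 650 min. Without the 4 libraries of 650 min with the most vitellogenin counts 2 rose and none fell. Of the 2 that rose, clec-209 had 270.1, 628.3 and 1166 CPM, against 0, 36.2 and 226.0 CPM (3.49 ± 0.26, edgeR adjusted p = 2.65e-25), without overlap, and clec-63 rose by 1.45 ± 0.16.

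Body wall muscle genes were mostly above their earlier mean at 830 min, and few were called against 650 min. Of 34 tested body wall muscle genes 28 were above the mean of the earlier stages, and against 650 min 2 rose and 1 fell, a share of rises near the 6.33% of all genes. With RLE and in DESeq2 1 rose and 1 fell. At an unadjusted p under 0.05 in edgeR 14 were higher and 6 lower. The list took 6.08 ± 1.09% of counts at 830 min, 4.52 ± 0.83% at 650 min and 3.21 ± 0.43% at 440 min. unc-54, the main myosin heavy chain of body wall muscle, had 2333, 4425 and 6009 CPM at 830 min, against 586.6, 2328 and 4204 CPM at 650 min (1.03 ± 0.21, edgeR adjusted p = 2.82e-05). It was higher in 19 strains, its ranges overlapped, and its change fell to 0.92 with RLE and in DESeq2, under 2-fold. The troponin T gene tnt-2 rose by 1.32 ± 0.23, and unc-60, a cofilin that turns over actin filaments, fell by 1.30 on the log2 scale in 20 of 20 strains. Among 7 tested pharyngeal muscle genes the myosin myo-1 rose 2.14-fold (SE 0.16 on the log2 scale) in 20 strains, a call lost at a log2 change of 0.996 with RLE, 0.935 with no filter, 0.92 in the last 14 strains and 0.979 without 4 libraries of 650 min. The other member of this list that rose was marg-1, and which cells of the pharynx express it was not examined. myo-2, the other pharyngeal myosin, had 349.9, 1746 and 3344 CPM, against 306.1, 875.9 and 1906 CPM (0.92 ± 0.15, edgeR adjusted p = 7.26e-08), under 2-fold. The pharyngeal gland genes went the other way: all 3 tested phat genes fell, phat-2 by 5.53, phat-4 by 1.72 and phat-5 by 1.54 on the log2 scale, each in 20 strains.

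Pharyngeal cuticle genes and a chitinase were among the deepest falls. Of 18 tested abu and pqn genes 5 fell and 2 rose against 650 min, where 11.2% of all genes tested fell and 6.33% rose. abu-14 had 0, 16.1 and 139.1 CPM at 830 min, against 1803, 3045 and 6070.0 CPM at 650 min (-6.67 ± 0.28, edgeR adjusted p = 2.14e-45), and pqn-74 (-5.75 ± 0.27) and abu-11 (-5.76 ± 0.29) fell as far. None of these overlapped between the stages, and abu genes are near-identical and may share reads. pqn-94 (1.30 ± 0.21) and pqn-83 (1.04 ± 0.18) rose. The chitinase cht-5 had 0, 0 and 153.0 CPM, against 745.6, 2396 and 5185 CPM at 650 min (-6.39 ± 0.24, edgeR adjusted p = 1.34e-56). Its highest 830 min libraries were those of strains 573 and 575. The hatching protease hch-1 had 6 counts over all 830 min libraries and 9 over those of 650 min, against a mean of 270.1 CPM at 440 min, and was not called against 650 min.

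Lipid and central carbon metabolism rose in part. Of 5 tested fatty acid desaturase and elongase genes 4 rose over 650 min and none fell, with a median of 1.85. The list of 16 took 0.160 ± 0.062% of counts at 830 min and 0.057 ± 0.021% at 650 min. Its tested members could pass the depth filter through 830 min alone, so the count is a description. The desaturase fat-2 had 0, 504.5 and 1696 CPM at 830 min, against 0, 113.8 and 576.2 CPM at 650 min (2.33 ± 0.21, edgeR adjusted p = 1.11e-19), and the elongase elo-1 rose by 2.17 ± 0.20. The lowest 830 min library of both was strain 502, and strain 570 the highest. fat-4 (1.85 ± 0.24) and fat-1 (1.51 ± 0.21) each rose in 18 strains. Of 10 tested genes of the glyoxylate cycle, gluconeogenesis and trehalose 5 rose and none fell, or 3 with RLE and in DESeq2. The citrate synthase cts-1 had 816.4, 1937 and 2962 CPM, against 462.4, 801.4 and 1067 CPM (1.32 ± 0.12, edgeR adjusted p = 4.22e-21), and 19 of its 830 min libraries exceeded every earlier one. aco-1, an aconitase (1.44 ± 0.24), the glycogen synthase gsy-1 (1.41 ± 0.21), the phosphoenolpyruvate carboxykinase pck-2 (1.07 ± 0.14) and the malate dehydrogenase mdh-2 (1.06 ± 0.17) rose as well. In glycolysis 2 of 13 tested genes rose, pyruvate kinase pyk-1 (1.32 ± 0.15) and pgk-1 (1.12 ± 0.17), and the glyceraldehyde phosphate dehydrogenases gpd-4 (-1.82 ± 0.34) and gpd-1 (-1.28 ± 0.35) fell.

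Ribosomal and respiratory genes were not called against 650 min. None of 77 tested cytosolic ribosomal protein genes was called against 650 min, with a median of 0.10, although 74 were above the mean of the earlier stages, and the list took 16.005 ± 2.8% of counts at 830 min and 13.1 ± 1.8% at 650 min. With RLE and in DESeq2 none was called either and the median was -0.01, and in edgeR 6 were higher at an unadjusted p under 0.05. None of 33 nuclear-encoded respiratory chain genes was called either by edgeR, DESeq2 or RLE scaling (median 0.23), although 15 were higher at an unadjusted p under 0.05, among them atp-1 (0.65 ± 0.12). None of 12 mitochondrially encoded genes was called by the same 3 fits (median -0.28), with 3 lower at an unadjusted p under 0.05.

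Some genes of secreted and stress proteins rose further. Of 9 tested transthyretin-like genes 3 rose and 1 fell. ttr-15 had 1261, 2242 and 4220.0 CPM at 830 min, against 36.6, 204.1 and 601.0 CPM at 650 min (3.23 ± 0.23, edgeR adjusted p = 1.15e-25), with no overlap, and ttr-18 (3.03 ± 0.22) and ttr-2 (2.77 ± 0.26) followed. Of 11 tested oxidative and metal stress genes 3 rose: the ferritin ftn-2 (2.22 ± 0.20, in 20 strains), lea-1, a desiccation protein (1.92 ± 0.26), and the superoxide dismutase sod-1 (1.30 ± 0.15). lea-1 had 159.0, 400.7 and 3440.0 CPM at 830 min, against 0, 129.9 and 269.7 CPM, and its highest value, in N2, stood far above the next, 671.3 CPM in strain 575. The small heat shock genes hsp-43 (2.57 ± 0.27) and hsp-17 (1.41 ± 0.19) rose among 6 tested and hsp-12.1 fell (-1.43 ± 0.46). Within the first 6 strains hsp-43 and hsp-17 did not pass the depth filter and were not tested. None of the 4 members tested there was called by edgeR (median -0.47). Of 6 tested detoxification genes the glutathione transferases gst-7 (1.98 ± 0.24) and gst-20 (1.805 ± 0.21) rose. Of 8 tested nuclear receptors 1 rose, nhr-97 (1.66 ± 0.19, in 19 strains), and 2 fell, nhr-2 (-1.86 ± 0.70) and nhr-68 (-1.07 ± 0.21), with a list median of -0.36. Of all genes tested 6.33% rose and 11.2% fell against 650 min. nhr-2 had 3 counts over all 830 min libraries and 18 over those of 650 min. Without the 830 min library of N2, 1 of the 8 was still called higher and none lower.

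Beside the remaining lists stand the shares of all genes tested, 6.33% higher and 11.2% lower than at 650 min. Of 6 tested collagen processing genes 1 fell, of 3 cuticlins 1 fell, of 4 molting genes 1 rose and 1 fell, and of 18 epidermal junction genes 1 rose and 2 fell. Among 12 homeodomain, 9 histone and 2 cilium genes edgeR with TMM called none, with 2, 8 and 0 at an unadjusted p under 0.05. Of the 9 histone genes 2 were lower with RLE and 1 in DESeq2.

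Among the 34 genes below every earlier stage, 2 met the conditions for naming. ZK829.9 had 0, 14.98 and 48.5 CPM at 830 min, against 110.8, 299.5 and 714.1 CPM at 650 min (-3.60 ± 0.25, edgeR adjusted p = 9.89e-29), without overlap. chdp-1 had 33.2, 144.9 and 375.1 CPM, against 147.7, 366.0 and 808.6 CPM (-1.26 ± 0.16), lower in 20 of 20 strains with overlapping ranges. The class also held 5 of 6 yolk protein genes, which account for 5 of the 6 members that fell among 12 tested genes of the fatty acid binding and lipid transport list (median -1.17). Yolk proteins are made in the gut of the adult mother. vit-4 had 0, 0 and 41.0 CPM, against 0, 85.6 and 999.7 CPM at 650 min (-3.82 ± 0.78, edgeR adjusted p = 2.09e-05), and its close copies vit-3 (-3.83 ± 0.82) and vit-5 (-3.05 ± 0.71), which may share reads with it, fell too. The 6 vitellogenin genes together took 0 to 0.0466% of counts at 830 min with a median of 0.00237%, and 0.00219 to 0.317% at 650 min with a median of 0.0179%. The highest 650 min libraries were those of strains 555, 550, N2 and 575, and the groups overlapped. Within the 14 strains that exclude those 4, 1 of 10 tested genes of the list fell, and vit-3 (edgeR adjusted p = 0.0645) and vit-5 (edgeR adjusted p = 0.101) were no longer called. With only those 4 libraries of 650 min left out, 5 of the 12 tested genes of the list still fell (median -0.835). In that fit vit-3 and vit-5 were still called.

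Egg transcripts were also highest at 650 min in a few libraries, those of strains 550, N2, 564 and 555. Of 22 tested maternal germline and egg genes 15 fell against 650 min and none rose, with a median of -1.31, among them mex-3 (-1.51 ± 0.23), mex-6 (-3.19 ± 0.60) and spn-4 (-1.88 ± 0.44), regulators of early embryonic RNA. The whole list of 32 took 0.017 to 0.105% of counts at 830 min with a median of 0.048%, and 0.020 to 0.552% at 650 min with a median of 0.0618%, with no member at 0 in either group. Without the 4 libraries of 650 min with the most vitellogenin counts, 2 of the 22 fell and the median was -0.65. Without them none of 27 tested cell cycle genes fell and 2 rose, against 4 that fell with all libraries, and the median of that list was -0.005 without and -0.41 with them. Within the strains, the calls of these falls therefore depend on few libraries of 650 min, and the part of maternal RNA in them was not tested. Against the mean of all earlier stages 20 of the 22 maternal genes and 26 of the 27 cell cycle genes were lower with all libraries, and 20 and 25 without those 4. The repeats are separate pools, with G matched to 830 min and F to 650 min by order. There 14 of the 22 maternal genes fell from F to G and none rose, where 9.34% of genes tested in both sets fell. Of the 27 cell cycle genes 2 fell there and none rose.

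The 830 min libraries also differed among themselves. The 94 genes took 5.00% of counts in N2, the lowest, 5.93% in strain 522 and up to 8.17% in strain 508. The 35 genes past their 650 min peak took 1.097% in strain 502 and 1.07% in N2, while the other 18 strains ran from 0.264 to 0.592%. The genes called against 650 min that varied most between strains at 830 min were ZK180.5, idpc-1, C02E7.7, pgph-2 and R12E2.7. Of these ZK180.5 had 1866 CPM in strain 502 and 1093 CPM in N2 at 830 min, against a median of 134.6 CPM there and 8749 CPM at 650 min. C02E7.7 had 1575 CPM in N2 and a median of 44.9 CPM, and R12E2.7 had 1717 CPM in N2 and a median of 20.6 CPM. The high values of these 3 genes lay in N2 or strain 502. Without the N2 library of 830 min 89 genes were above every earlier stage, and 93 without that of strain 502. Within the first 6 strains, 132 of 4200 tested genes were above every earlier stage, and within the other 14 strains 77 of 2285. Some list medians against 650 min changed sign between the 2 sets, such as 0.83 and -0.79 for furrow collagens and 1.06 and -1.099 for precuticle genes. Both of these lists were near the floor, so their medians rest on few counts. Furrow collagens took a mean of 0.0044% of counts at 830 min and 0.0058% at 650 min, and precuticle genes 0.0115% and 0.0142%.

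The RNA of the last stage was drawn from fewer genes than the mean of the earlier stages, while the difference from 650 min did not pass its test. Among 5000 counts of a library, 2049 ± 208 genes were expected at 830 min and 2104 ± 201 at 650 min (SD, n = 20). The paired difference from the mean of the 6 earlier stages was -241 ± 202 genes, negative in 17 of 20 strains (two-sided permutation test over strains, 100000 sign flips, p = 0.00018), and from 650 min -54.8 ± 228, negative in 13 of 20 strains (p = 0.30 by the same permutation test). The 50 most counted genes of each library took 19.6 ± 4.5% of its counts at 830 min and 19.4 ± 4.2% at 650 min. Against the mean of the earlier stages the difference was 4.20 ± 4.54 percentage points (p = 0.00064, permutation test), and against 650 min 0.215 ± 5.25 (p = 0.856, permutation test), where its sign changed when fewer genes or strains were taken.

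The repeats of strain 522 gave a second set of pools, with G matched to 830 min and F to 650 min by order. Their 7 time points held 58543 to 623958 counts per library, and 7584 genes were tested. G exceeded the mean of A to F in 2563 genes, 33.8%, and was lower in 1109, 14.6%. Of the 94 genes above every earlier stage in the strains, 93 had a positive change from F to G and 52 were called higher, where 4.92% of the 2967 genes tested in both sets were. The same 52 were also above every earlier point in the repeats, against 2.16% of genes. Of the 204 genes shared with 650 min, 167 fell into that class again, against 8.06%. Of the 35 genes past their peak 34 fell from F to G, against 9.34% of genes, and 14 fell into the same class again, against 0.809%. From F to G 16 of the 34 genes below every earlier stage fell. Of these 34, 12 were below every earlier point again, against 1.25% of genes. Strain 522 is in both sets, so these are separate pools and not separate strains.

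The leading genes rose in the repeats as well. col-147 had 2199, 1204 and 1519 CPM in the G libraries, against 0, 0 and 15.5 CPM in F (7.55 ± 0.37), and marg-1 had 775.5, 765.5 and 473.9 CPM, against 3.99, 0 and 2.59 CPM (7.75 ± 0.45). C53B7.3 rose by 6.38 ± 0.47, nlp-28 by 5.84 ± 0.34 and del-6 by 4.54 ± 0.30. col-160 rose by 2.79 ± 0.32 and fipr-2 by 4.10 ± 0.27. nlp-24 had 2168, 1735 and 1458 CPM in G, against 1768, 1655 and 1275 CPM in F, and was not called (0.20 ± 0.22). myo-1 (0.41 ± 0.20), unc-54 (0.46 ± 0.25) and asp-14 (0.35 ± 0.21) were not called either, and for these 4 genes the edgeR test of the difference between the sets did not pass the threshold either. Falls were deep, with col-48 at 0, 2.52 and 0 CPM, against 986.0, 1399 and 992.8 CPM, and abu-11 at 0 in each G library.

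**Figure D5:**
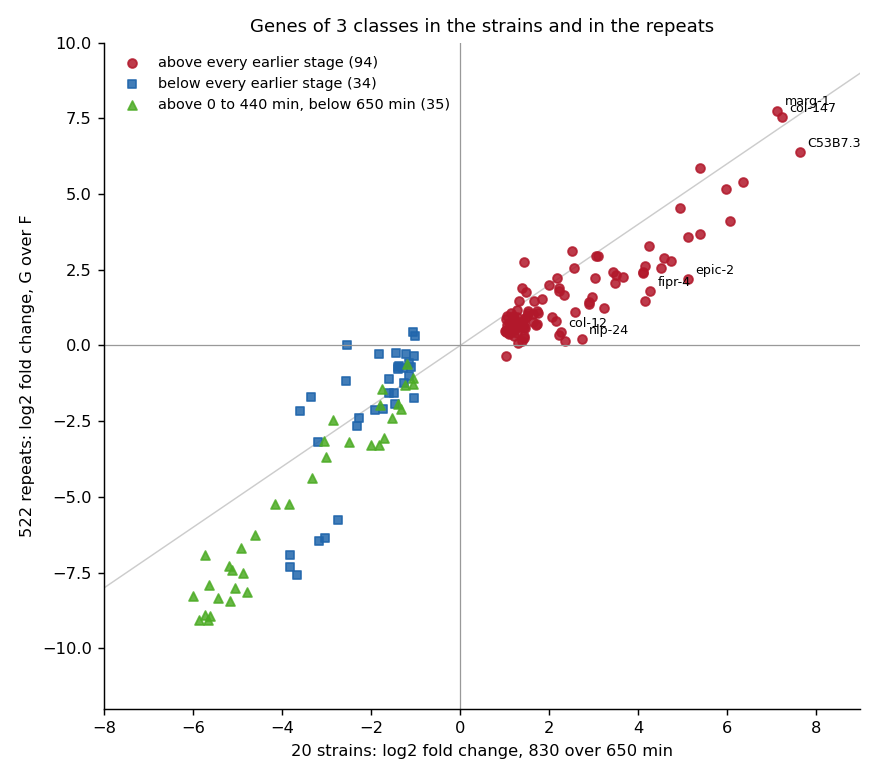
Log2 fold changes of 830 over 650 min in 20 strains (x axis) and of G over F in the repeats of strain 522 (y axis), for the 94 genes above every earlier stage, the 34 below every one and the 35 above 0 to 440 min and below 650 min. The grey line marks equal values; 93 of the 94 genes lie above 0 in the repeats, with fipr-4, nlp-24 and col-12 well under the line.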

How the data were processed

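The authors deposited raw whole-number counts per gene; the submitters' processing notes name CASAVA 1.8 and Bowtie2 2.1.0. The sources used here do not name the build, annotation, counter or strand setting, and no coordinates or sequences are printed. Molecular identifiers are not mentioned, and intervals cover counting error only. Symbols came from RefSeq, where 20063 of 20687 identifiers matched. Rows without a gene were dropped (reads in no feature made up 17.8% to 47.7% of aligned reads in the repeats). Another 44 columns of per-sample values were not used.

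Counts were tested in edgeR 4.0.16 (R 4.3.3; TMM, filterByExpr with a minimum of 10 counts, robust quasi-likelihood, two-sided) on all 140 strain libraries, with stage in 7 levels and strain as a block. Strain is the pairing the labels give; the median correlation of deviations between 830 min and earlier libraries was 0.0721 within strains and -0.009 between. The repeats were fitted apart, without a block. SE is the log2 fold change over the root of F. Tests were tried on simulated data. Alternatives were RLE, DESeq2 1.42.0, other filters, no block, 2 stage levels, a 4-fold limit and fits without libraries or strains. Named genes were the 15 largest rises above every stage and the 10 largest falls below every stage (mean of at least 50 CPM, at least 19 strains), the 8 largest rises over 440 min shared with 650 min, 2 to 4 members per list by p, and the 5 most variable between strains; other genes were chosen after their values were seen. The 830 min comparison and the 38 gene lists were chosen with earlier results of these data known. Promoter motifs were not analysed here.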

Additional observations from a re-analysis of the deposited data

Results flagged for a closer look

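The rise of 2 peptide genes was larger in the strains than in the repeats of strain 522, by a test of the difference itself in 1 edgeR fit over both sets. For fipr-4 the change was 4.28 ± 0.26 from 650 to 830 min in the strains and 1.796 ± 0.24 from F to G in the repeats, a difference of 2.50 ± 0.54 on the log2 scale (edgeR, Benjamini-Hochberg adjusted p = 0.00933). fipr-8, its close copy on chromosome V, changed by 4.15 ± 0.26 in the strains and 1.47 ± 0.24 in the repeats, a difference of 2.80 ± 0.54 (edgeR adjusted p = 0.00272). Their levels in the 3 G libraries, 510.3 to 760.4 CPM and 352.4 to 649.6 CPM, lay inside the range of the 20 strains at 830 min. Those in F, 116.3 to 299.4 CPM and 129.3 to 275.4 CPM, lay above the strain medians of 650 min, 8.16 and 12.8 CPM. They were the 2 of 94 genes above every earlier stage with such a difference, where 6 of 5976 genes tested had one. They may share reads, so the pair counts as a single observation. No cause was tested.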

How the results depend on the processing

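Counts moved most with the depth filter, whose alternatives test other genes. With a minimum of 3 counts 7030 genes were tested, 1818 were higher and 1746 lower than the mean of the earlier stages, 224 were above and 73 below every earlier stage and 509 were shared with 650 min. With no filter these were 5468, 2136, 709, 101 and 1583 of 18316. RLE gave 1353 genes lower and 95 below every stage, and DESeq2 1365 and 81; all 72 and 73 genes they put above every stage were among the 94. At 4-fold 39 genes were above and 9 below. The last 14 strains gave 17 below every stage, chosen after seeing the data like the other library subsets. In the repeats no filter gave 4941 higher and 1929 lower genes, and leaving out 1 G library gave 2278 to 3120 higher and 1036 to 1126 lower. The difference in share of the 50 most counted genes from 650 min turned to -0.415 with 20 genes, -0.198 without strains with a shallow library and -0.237 in the last 14 strains. The causes were not tested.

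Strain pairs the libraries by design. With no replicate block 750 genes were higher and 920 lower than the earlier mean, 90 above, 30 below and 207 shared. In the repeats the numbers did not pair the samples (median r of deviations -6e-04 for the same number, -3e-04 for others), and a replicate block gave 2547 higher and 1098 lower. Each of the 95 named genes followed here was called in the main fit, so a change of sign was unlikely beforehand. None changed sign in 1219 values under 13 alternatives, and 49 values fell under the threshold. Among them were unc-54, mdh-2, pck-2, pghm-1, egl-21, nlp-40 and myo-1 near 2-fold, and cts-1 within the first 6 strains. rnr-2, ify-1 and spn-4 lost their call in the last 14 strains and without 4 libraries of 650 min, and vit-3 and vit-5 in the last 14 strains only. cyb-3 lost its call with no replicate block, without strain 522 and within the first 6 strains. It also did so without the 830 min library of N2 and without the 4 libraries of 650 min. Depth limits the report to abundant transcripts: 2970 of 20687 genes.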
